A study of Mus musculus with 21 samples.

Results

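Septins are a family of GTP-binding cytoskeletal proteins, and the transcripts of its members Septin2 to Septin11 were followed here in the neocortex of rNLS8 mice and their controls. The 10 members were all rows of the deposited count table that carry these symbols, out of 48474 rows in all, and each had enough counts to be tested among 18248 genes. Bulk RNAseq was available for 21 mice, with 11 labelled WT (4 in batch A and 7 in batch B) and 10 labelled TG (3 in batch A and 7 in batch B). The TG mice are rNLS8 mice, which carry the tetracycline transactivator under the neurofilament heavy chain promoter (NEFH-tTA) together with a tetracycline-responsive human TDP-43 without its nuclear localization signal (tetO-hTDP-43ΔNLS), so that the transgene is expressed almost only in neurons. The WT mice are, by the text of the series, monogenic littermates, so a control may carry 1 of the transgenes. At 17 to 19 weeks of age, a control antisense oligonucleotide with no target (350 µg in a volume of 10 µL) had been given into the cerebral ventricles of both genotypes, and all were on a doxycycline diet (200 mg/kg), which keeps the transgene off, until 2 weeks later. Tissue was taken after a further 3 weeks without doxycycline. The labels list no sex, and the study states that both sexes of rNLS8 mice were pooled for analysis. The labels name the tissue as neocortex, as is done here, and the methods of the study name cortex of the brain, while a legend names hippocampus for rNLS8 mice. What the labels call batches are 2 independent cohorts in the text of the series.

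Septins fall into 4 homology groups, named after Septin2 (Septin2, Septin4 and Septin5), Septin3 (Septin3 and Septin9), Septin6 (Septin6, Septin8, Septin10 and Septin11) and Septin7, which stands alone. Members of different groups join into rod-shaped hetero-oligomers that assemble end to end into filaments and rings at membranes, and within a group members can take the place of each other. In neurons, septins are known at the presynaptic terminal, at the base of dendritic spines and at branch points of axons and dendrites, and in myelin they form filaments along the innermost layers that stabilize the sheath.

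All septins share a GTP-binding domain with a phosphate-binding loop near its start. The coding bases of this loop are shown because all members share this stretch. Sequences were read 5′ to 3′ from the GENCODE vM21 transcripts (GRCm38), 24 bases each, and capitals mark the last 3 codons, which encode the glycine, lysine and serine of the loop.
Septin2: ggtgaatctggtctaGGAAAATCA
Septin4: ggagaatctggtctgGGTAAATCC
Septin5: ggtgagtccggcctgGGGAAGTCC
Septin3: ggccagagtggactgGGCAAGTCA
Septin9: gggcagagcggcctcGGGAAGTCC
Septin6: ggggagacaggtttgGGCAAGTCC
Septin8: ggcgaaactgggattGGCAAGTCC
Septin10: ggggagactggaattGGAAAATCA
Septin11: ggtgagacaggtattGGCAAATCC
Septin7: ggtgaatctggactgGGAAAGTCG
Over the aligned bases of the coding sequences, with gaps left out, the 10 pairs within a homology group were 64.4% to 75.0% identical. The 35 pairs between groups were 58.2% to 67.6% identical. The closest pair was Septin6 and Septin11, and the most distant was Septin2 and Septin11.

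Total counts per mouse were between 20700912 and 22263809. Tardbp, the mouse gene of TDP-43, was used as a check of the labels. In normalized counts (counts scaled to a common effective library size), the lowest, median and highest WT mice had 2253, 2650 and 2827 for Tardbp, and the TG mice 2363, 4500 and 5053. Of the TG mice, 9 were above every WT mouse, and the library labelled TG replicate 9, from batch A, was inside the WT range at 2363. The other TG mice of batch A were only just above it, at 3091 and 2903, whereas the lowest TG mouse of batch B was at 4405. The mean of Tardbp thus went from 2371 in WT to 2786 in TG mice of batch A and from 2691 to 4676 in batch B. Whether reads of the human transgene were counted in this row is not given in the sources used here. The log2 fold change of each septin is therefore also given without the library labelled TG replicate 9. Tbr1, a transcription factor of cortical excitatory neurons, had 2251, 2647 and 2899 normalized counts in the lowest, median and highest WT mice and 2108, 2476 and 2995 in the TG mice. The 3 markers of choroid plexus, which is not part of the neocortex, varied widely in both groups, from 10.9 to 2067 CPM in WT and from 19.9 to 1072 in TG mice.

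The comparison of TG with WT asks how septin transcripts stood 3 weeks after the transgene was switched on. Septin5 and Septin8 were at about 70% of their WT level in TG mice and Septin11 at 86.2%, Septin2 was at 111%, and the other 6 septins were within 10% of WT. The septins were selected on the counts of TG against WT mice in this comparison, so its values are a description and carry no test here. In the fit over all genes (edgeR quasi-likelihood test with batch in the model, Benjamini-Hochberg adjusted p under 0.05), 3 septins passed the threshold as lower and 1 as higher, against 21.7% and 23.0% of all genes tested. The median log2 fold change was -0.043 over the 10 septins and -0.0007 over all genes tested. In bulk tissue, fewer cells of a type and less RNA per cell cannot be told apart.

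**Figure D1:**
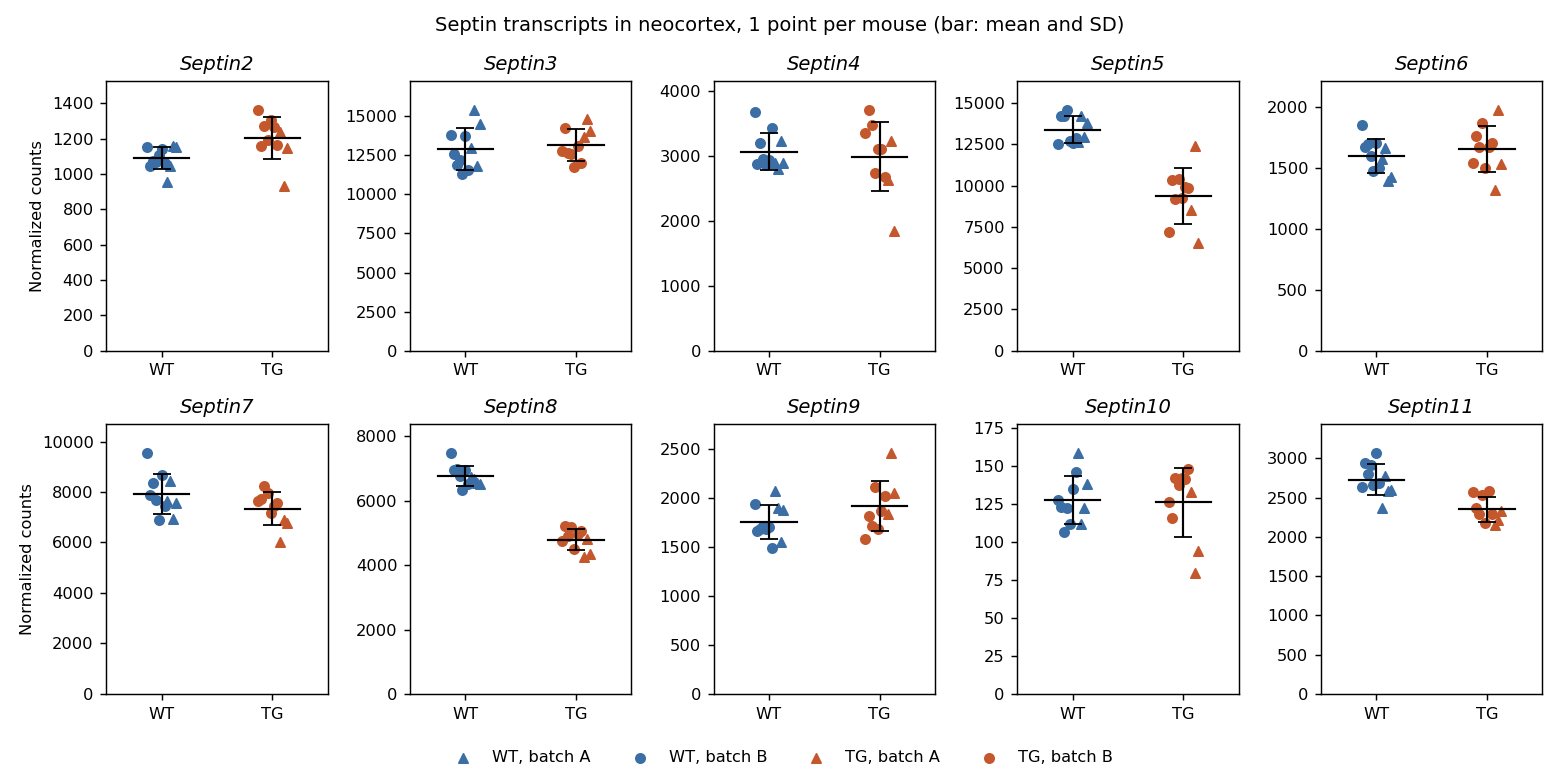
Normalized counts (y axis) of each septin in 11 WT and 10 TG mice (x axis), with triangles for batch A, circles for batch B and black bars for the mean and SD. The TG mice lie below every WT mouse for Septin5 and Septin8, and both genotypes overlap for the other 8 septins.

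Septin5, a presynaptic septin that binds syntaxin and synaptic vesicles, had a log2 fold change about as large as that of Septin8, and the order of the pair depended on how the Septin5 row was treated. The lowest, median and highest WT mice had 12524, 12967 and 14584 normalized counts of Septin5, and the TG mice 6525, 9572 and 12411. All 10 TG mice were below all 11 WT mice, and the TG mice varied more (9362 ± 1679, SD, n = 10) than the WT mice (13388 ± 803, SD, n = 11). The log2 fold change of Septin5 was -0.52 ± 0.080 (SE). The highest of the TG values belonged to the library labelled TG replicate 9, and without it the log2 fold change was -0.59.

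Septin8, a septin of the SEPT6 group found in neurons and in myelin, differed by nearly the same amount with less scatter. WT mice had 6325, 6751 and 7480 normalized counts of Septin8 as the lowest, median and highest values, and TG mice had 4240, 4861 and 5221. The highest TG mouse was thus well below the lowest WT mouse, and the genotypes overlapped in neither batch. The log2 fold change of Septin8 was -0.51 ± 0.038 (SE), and it was -0.52 without the library labelled TG replicate 9. Over all genes tested, 3.80% had every TG mouse below every WT mouse.

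Septin11, also of the SEPT6 group and known in dendrites and spines, was lower by a smaller amount. Its normalized counts were 2373, 2689 and 3068 in the lowest, median and highest WT mice and 2153, 2316 and 2585 in the TG mice. Of the TG mice, 7 were below every WT mouse and 3 were within the WT range. The log2 fold change of Septin11 was -0.22 ± 0.041 (SE), and it was -0.22 without the library labelled TG replicate 9.

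Septin2, the founding member of its group and widely expressed, was the septin past the threshold as higher. Its normalized counts were 956, 1076 and 1161 in the lowest, median and highest WT mice and 933, 1214 and 1363 in the TG mice. Of the TG mice, 7 were above every WT mouse, 2 were within the WT range, and the library labelled TG replicate 9 was below every WT mouse. No septin had every TG mouse above every WT mouse, against 3.85% of all genes tested. The log2 fold change of Septin2 was 0.14 ± 0.050 (SE) in all mice and 0.18 without that library. It no longer passed the threshold without TG replicate 1 (0.12) or without TG replicate 8 (0.12).

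The other septins did not pass the threshold. Septin7, the member that most septin oligomers contain, had 7911 ± 785 normalized counts (SD, n = 11) in WT mice and 7344 ± 643 (SD, n = 10) in TG mice, a log2 fold change of -0.12 ± 0.052 (SE) that was also -0.12 without the library labelled TG replicate 9, and 3 TG mice were below every WT mouse. Septin9, a ubiquitous septin of the SEPT3 group that links filaments to actin and microtubules, had 1754 ± 174 in WT and 1918 ± 255 in TG mice (0.14 ± 0.061, SE, and 0.099 without the library labelled TG replicate 9). Both lay close to the threshold, since Septin7 passed it when any 1 of 3 mice was left out (TG replicate 3, WT replicate 5 or WT replicate 7) and Septin9 when any 1 of 4 was (TG replicates 1 and 8, WT replicates 1 and 8).

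Septin3, a neuron-specific septin, had 12898 ± 1321 normalized counts in WT and 13162 ± 1007 in TG mice (log2 fold change 0.038 ± 0.049, SE, and 0.028 without the library labelled TG replicate 9). Septin6 had 1597 ± 139 and 1656 ± 191 (0.048 ± 0.060, SE), and the difference was -0.0031 without the library labelled TG replicate 9. Septin10 was the scarcest member with 128 ± 15.7 and 126 ± 22.9 (-0.032 ± 0.098, SE), and its direction turned to 0.034 without the library labelled TG replicate 9. Septin4, a septin of myelin and of some neurons, had 3069 ± 283 and 2989 ± 535 (-0.055 ± 0.080, SE, and -0.096 without the library labelled TG replicate 9), and its direction turned to 0.0082 without TG replicate 10. Genotypes overlapped for all 4.

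**Figure D2:**
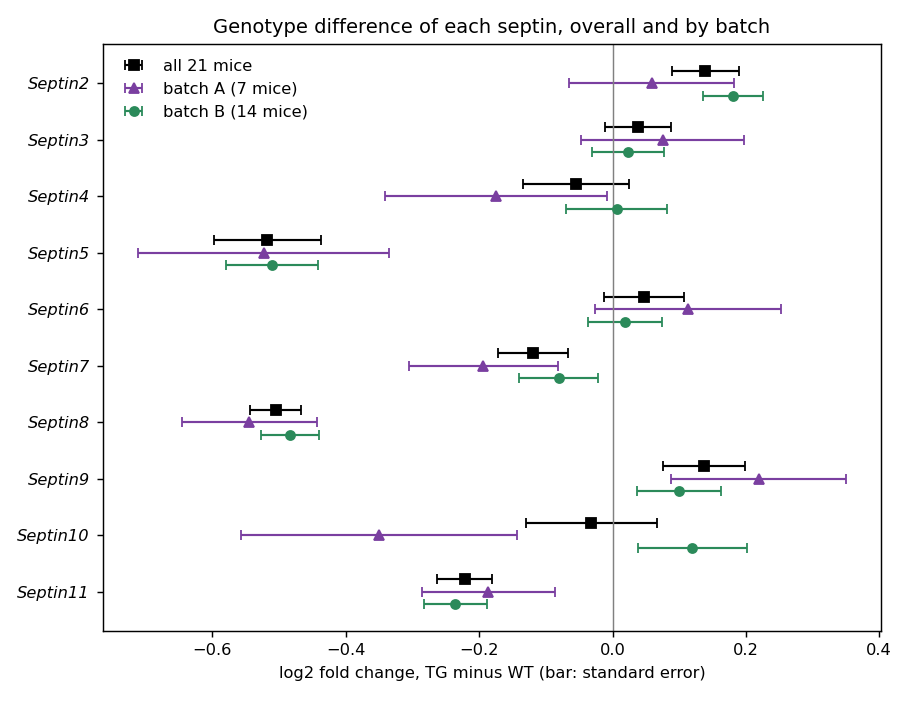
Log2 fold change of each septin, TG minus WT (x axis), in all 21 mice (black squares), batch A (7 mice, triangles) and batch B (14 mice, circles), with standard errors as bars. Septin5, Septin8 and Septin11 lie below 0 in both batches, and Septin10 has opposite signs (-0.35 in batch A and 0.12 in batch B).

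Within batches, the log2 fold change of Septin5 was -0.52 ± 0.19 (SE) in batch A and -0.51 ± 0.068 in batch B. That of Septin8 was -0.54 ± 0.10 and -0.48 ± 0.044, and that of Septin11 was -0.19 ± 0.100 and -0.24 ± 0.047. Septin2 was at 0.059 ± 0.12 in batch A and 0.18 ± 0.045 in batch B. Whether the genotype difference itself differed between batches was tested by the interaction of genotype and batch (edgeR quasi-likelihood test), which the choice of the members did not use. The standard errors of this difference were between 0.081 and 0.19 for the septins on the log2 scale. In simulated counts, this test found 23 of 100 planted log2 differences of 0.5 and 65 of 100 of 1, over genes of all levels. Differences between batches could thus have been missed, and not only small ones. No septin passed the adjusted threshold, and 0% of all genes did, while 5.64% had an unadjusted p under 0.05. Of the septins, 1 had an unadjusted p under 0.05 by edgeR and 1 by DESeq2, and none passed by either tool after adjustment. In edgeR this was Septin10, with a difference between batches of -0.50 ± 0.19 (SE, p = 0.0139, adjusted p = 0.853). Its 2 lowest values among the TG mice, 79.7 and 93.9 normalized counts, came from the libraries labelled TG replicate 9 and TG replicate 10 of batch A.

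Septin4 and Septin5 each have a further row in the table, written as the symbol with a suffix, whose counts follow the first row closely. For Septin5, the first row held 102% to 105% of the counts of the copy in 19 mice, but 82.5% in TG replicate 1 and 73.5% in TG replicate 10. These were also the 2 lowest TG mice for Septin5, with 7177 and 6525 normalized counts. In the copy row all 10 TG mice were again below all WT mice, with a log2 fold change of -0.47 ± 0.055 (SE). With both rows summed the log2 fold change of Septin5 was -0.49, and it was -0.42 without TG replicates 1 and 10, where that of Septin8 was -0.49. For Septin4, the first row held 95.6% to 99.7% of the copy in 16 mice, between 85.7% and 93.7% in another 4, and 70.3% in TG replicate 10. In the copy row of Septin4 the log2 fold change was 0.0075 ± 0.065 (SE) over all mice and 0.019 in batch A, where the first row gave -0.055 and -0.17, so the direction for Septin4 depended on the row. What the copies stand for is not given in the sources used here, so the exact level of Septin4 and Septin5 in these mice is uncertain.

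**Figure D3:**
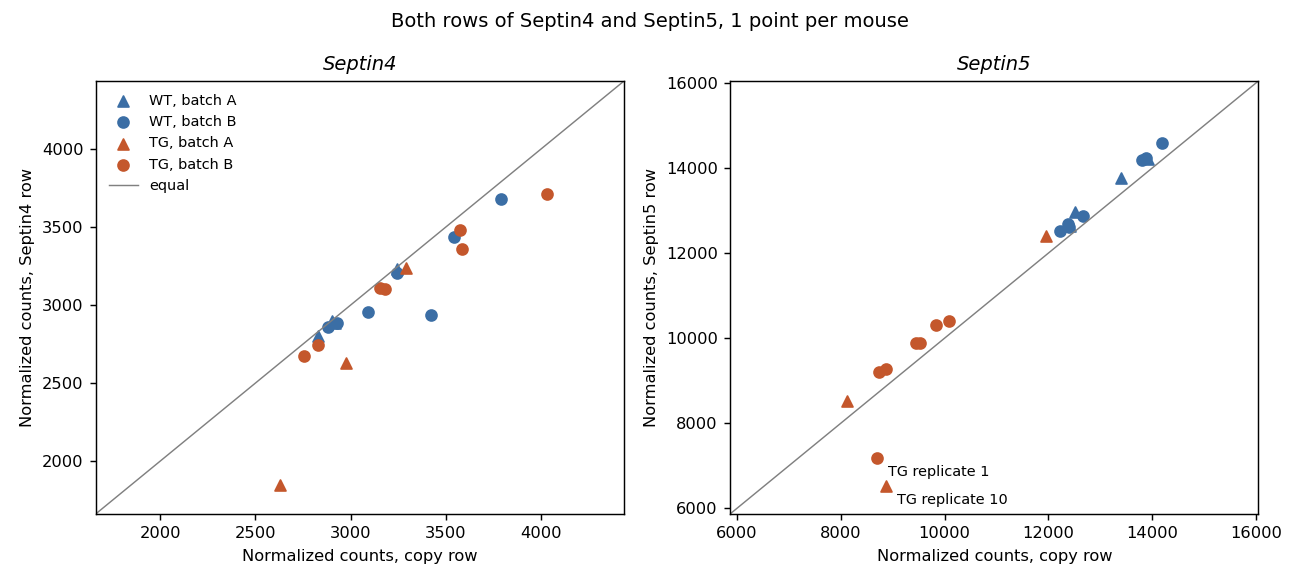
Normalized counts of the Septin4 row (left) and the Septin5 row (right) against the row of their copy, 1 point per mouse, with a grey line for equal values. TG replicates 1 and 10 lie below the line for Septin5, and for Septin4 TG replicate 10 lies farthest below it.

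Septin5 (GRCm38 chr16:18621811-18629938, minus strand) also shares exons with its neighbour on the same strand. In GENCODE vM21, 48.6% of its exonic length overlaps Gp1bb, which encodes a platelet receptor subunit, and 56.3% overlaps the joint transcript model Gm49601. The Gp1bb row was small, at 218 ± 58.9 normalized counts in WT and 131 ± 38.5 in TG mice. How reads in the shared exons were assigned is not given in the sources used here. The other septins overlapped other genes over at most 3.12% of their exonic length. Septin8 lies at chr11:53519397-53549605 (plus strand), Septin11 at chr5:93090995-93182368 (plus strand) and Septin2 at chr1:93478981-93509733 (plus strand).

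Levels of different septins were compared per length, as CPM (by effective library size) per kilobase of exonic length. In WT mice, Septin5 had the highest level at 160 ± 9.60 (SD, n = 11), followed by Septin3 at 91.3 ± 9.34, Septin8 at 52.1 ± 2.42, Septin4 at 40.3 ± 3.71 and Septin7 at 31.9 ± 3.16. The lower part of the order was Septin11 at 13.5 ± 0.965, Septin9 at 10.9 ± 1.08, Septin6 at 7.57 ± 0.657, Septin2 at 6.39 ± 0.365 and Septin10 at 1.92 ± 0.237. Neighbours in this order whose ranges over the 11 mice overlapped were Septin4 and Septin7, Septin11 and Septin9, and Septin6 and Septin2. In TG mice, Septin8 (36.9 ± 2.58, SD, n = 10) came after Septin4 (39.3 ± 7.03) and Septin11 (11.6 ± 0.790) after Septin9 (11.9 ± 1.58), each pair with overlapping ranges. The order depended on the length used, and per coding length Septin3 (598 ± 61.2) came before Septin5 (566 ± 34.0) in WT mice and Septin7 came before Septin8.

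**Figure D4:**
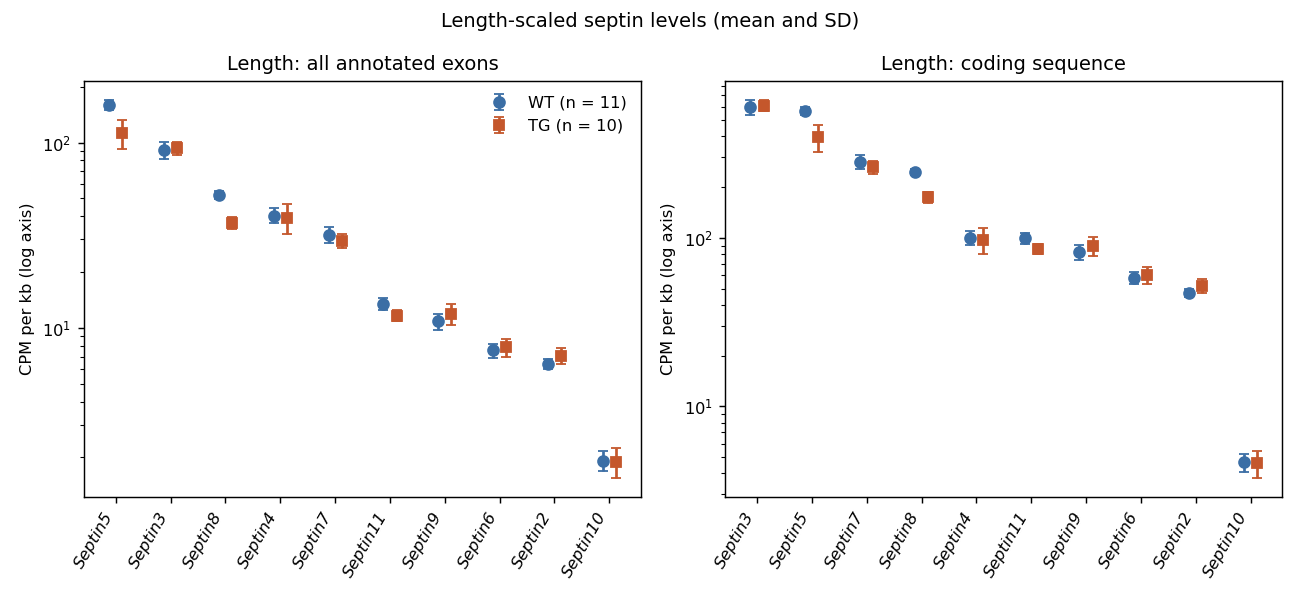
CPM per kilobase (log axis) of each septin, in WT (circles) and TG (squares) mice as mean and SD, scaled by the length of all annotated exons (left) and of the coding sequence (right). Septin10 is lowest on both scales, and Septin5 and Septin3 are the 2 highest.

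Summed by homology group, the 10 septins came to 416 ± 17.4 CPM per kilobase of exonic length in WT mice and 351 ± 29.4 in TG mice. The SEPT2 group made up 49.8% ± 1.87 of this sum in WT and 44.9% ± 3.57 in TG mice, and the SEPT6 group 18.1% ± 0.646 and 16.6% ± 1.02. The SEPT3 group, whose own sum was 102 ± 10.1 and 105 ± 8.05, made up 24.5% ± 1.76 and 30.0% ± 2.96, and every TG mouse (27.8% or more) was above every WT mouse (27.3% or less). Septin7 made up 7.65% ± 0.552 and 8.45% ± 0.807. Per coding length the shares differed, with 34.3% ± 1.75 in WT and 29.7% ± 2.78 in TG mice for the SEPT2 group, 32.6% ± 1.97 and 38.2% ± 2.91 for the SEPT3 group, and 13.5% ± 0.862 and 14.3% ± 1.25 for Septin7, so that the largest group in TG mice depended on the length used. These shares follow from the values above and, like them, are a description. They use the first rows of Septin4 and Septin5, whose exact levels are uncertain, and were not computed with the copy rows.

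Whether septins varied together from mouse to mouse was examined on log2 CPM with the mean of each genotype and batch removed, so that the genotype difference played no part. Of 45 pairs, 8 passed a permutation test within genotype and batch (100000 permutations, 2-sided, Benjamini-Hochberg adjusted over the pairs), and all 8 were positive. The share of pairs that would pass among other genes was not computed, so this count is not particular to septins. Of 14583 genes searched, 4.81% had an r of at least 0.7 with Septin6 and 2.67% with Septin9. For Septin7 this share was 0.974% and for Septin3 0.576%. The closest relation was between Septin6 and Septin8 of the SEPT6 group. Its Pearson r over 21 mice was 0.89 (permutation p = 1e-05, the smallest the permutations can give, adjusted p = 0.00045) and its Spearman rho 0.94 (permutation p = 1e-05, adjusted p = 0.00045). It was 0.95 within batch A, 0.97 within batch B and 0.90 without the 2 mice farthest from the median of Septin6. Among 14583 genes with a mean of at least 50 counts, Septin6 was the gene most like Septin8 by this measure, whereas 1.75% of these genes had an r of at least 0.7 with Septin8.

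Septin9 followed the same pair. Its r was 0.81 with Septin6 (permutation p = 0.00015, adjusted p = 0.00225, rho 0.80 with permutation p = 7e-05) and 0.72 with Septin8 (permutation p = 0.00065, adjusted p = 0.00487, rho 0.74 with permutation p = 0.00064). Within batch A these were 0.84 and 0.79, within batch B 0.79 and 0.71, and without the 2 mice farthest from the median of the first septin of each pair 0.76 and 0.80. The library labelled TG replicate 9 had the highest Septin9 value, and without it they were 0.78 and 0.67.

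The other 5 pairs past the threshold joined Septin3, Septin6, Septin7 and Septin8. Their r was between 0.57 and 0.74, with adjusted p between 0.000675 and 0.019 by the permutation test, between 0.28 and 0.82 within batch A (7 mice) and between 0.66 and 0.80 within batch B (14 mice). Without the library labelled TG replicate 9 it was between 0.56 and 0.79. The lowest within batch A was Septin3 with Septin8, whose rho of 0.49 did not pass (permutation p = 0.023, adjusted p = 0.0797). Without the 2 mice farthest from the median of the first septin, Septin3 with Septin6 (0.51) and Septin7 with Septin8 (0.55) no longer passed. No pair with Septin2, Septin4, Septin5, Septin10 or Septin11 passed. Septin2 had negative r with Septin6 (-0.69, permutation p = 0.0134, adjusted p = 0.0567) and Septin9 (-0.65, permutation p = 0.0128, adjusted p = 0.0567), which missed the threshold. Its rho was -0.61 with Septin6 (permutation p = 0.0136) and -0.59 with Septin9 (permutation p = 0.0228). Within batch A these r were -0.92 and -0.89, within batch B -0.30 and -0.35, and without the library labelled TG replicate 9 -0.57 for both. Within the 10 TG mice they were -0.93 and -0.88 and within the 11 WT mice -0.21 and -0.28, a difference that was not tested. An r of -0.7 or lower with Septin2 was found for 6.31% of the 14583 genes searched. Negative r of about this size with Septin2 are thus not particular to septins. With the copy row, the r of Septin5 was 0.71 with Septin6 (0.56 with the first row) and -0.62 with Septin10 (-0.28), so its relations are uncertain. Depth and RNA quality can move many genes together, and their part in these relations was not tested.

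**Figure D5:**
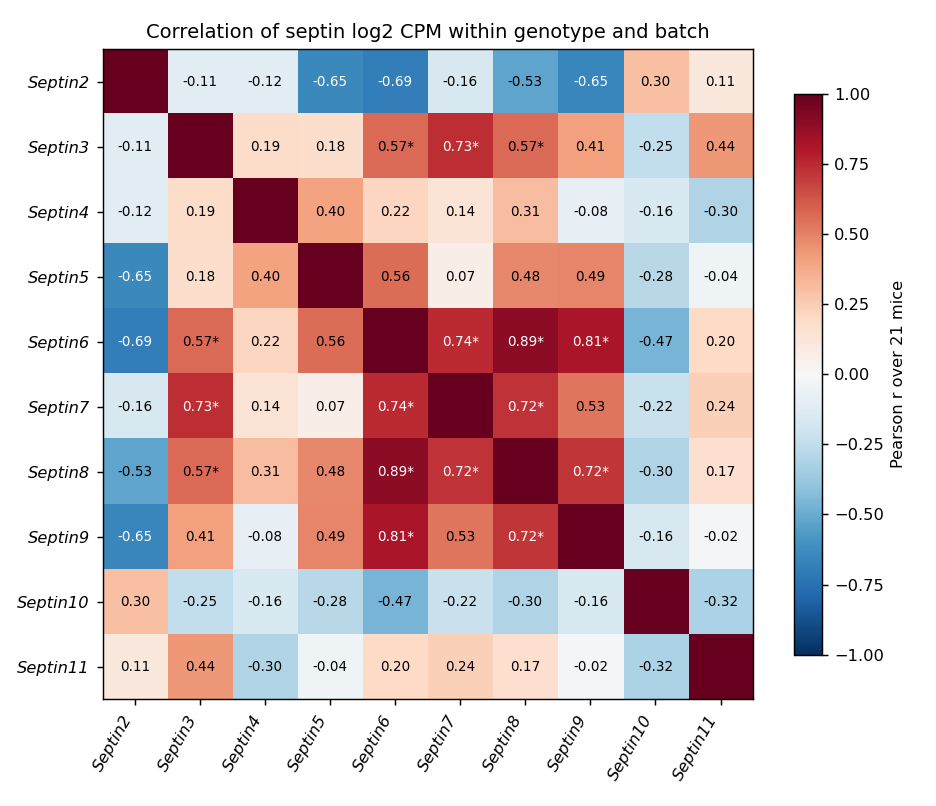
Pearson r over 21 mice between the log2 CPM of each pair of septins after the mean of each genotype and batch was removed, as colour and number, with asterisks for an adjusted permutation p under 0.05. Septin3, Septin6, Septin7, Septin8 and Septin9 form the red block, and Septin2 is negative with Septin5, Septin6, Septin8 and Septin9.

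For the 3 septins with the largest fold change, the genes most like them by the same measure over 21 mice are given as a description. For Septin5 these were Pih1d1 (r = 0.90), Snf8 (0.88) and Tbcb (0.88), a tubulin-folding cofactor, but with the copy row of Septin5 in place of the first row these r were 0.68, 0.88 and 0.71. For Septin8 they were Septin6 (0.89), Gla (0.88), a lysosomal galactosidase, and Asb13 (0.87). For Septin11 they were Camkk2 (0.84), a calcium-dependent kinase, Phf24 (0.82) and Cacna1a (0.79), a presynaptic calcium channel subunit.

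Other genes of septin biology were taken as a list of 16 binding partners, regulators and upstream enzymes, which was drawn up with earlier results of these data known. In the comparison of TG with WT (edgeR quasi-likelihood test, p adjusted over all genes), 6 were lower, 2 were higher and 8 did not pass, against 21.7% lower and 23.0% higher over all genes, so 8 of 16 lies near the 44.7% called over all genes in either direction. Among the partners at the synapse, Stx1a, the syntaxin that Septin5 binds, fell from 5383 ± 621 to 3267 ± 556 normalized counts (log2 fold change -0.71, adjusted p = 5.47e-08), and 9 of 10 TG mice were below every WT mouse.

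Cdc42, the small GTPase that acts on septins through the Borg proteins, was lower (log2 fold change -0.33, adjusted p = 3.08e-08), with all 10 TG mice below all WT mice. None of the 5 Borg genes (Cdc42ep1 to Cdc42ep5) passed, though Cdc42ep3 (log2 fold change -0.19, adjusted p = 0.0698) did when WT replicate 1, WT replicate 6 or TG replicate 9 was left out. Myh10, a non-muscle myosin, was lower (-0.20, adjusted p = 0.00387), as were Slc1a3, the glutamate transporter of astrocytes (-0.15, adjusted p = 0.00972), and Map4, a microtubule-associated protein (-0.11, adjusted p = 0.0266). Myh10 did not pass without batch in the model (-0.18, adjusted p = 0.0583). Slc1a3 and Map4 did not pass with scaling by library size only, and Map4 also missed the threshold with no filter, in batch B alone, without TG replicate 9 and without WT replicate 1. In batch A alone Myh10, Slc1a3, Map4 and Arhgef18 did not pass. Taok2, a kinase upstream of Septin7 in spines, was higher (0.21, adjusted p = 4.28e-05), as was Arhgef18, a guanine nucleotide exchange factor that septins bind (0.18, adjusted p = 0.000601). Anln, which loads septin filaments onto myelin, was at -0.14 (adjusted p = 0.383), and Kif17, a kinesin, did not pass either.

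Of the remaining family symbols, Septin1 had 291 counts in all 21 mice together and a log2 fold change of 0.073, Septin14 had 5 counts, and Septin12 had none.

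Cell type markers were counted beside the septins, and over all genes 21.7% were lower and 23.0% higher. Of 8 neuronal markers, 5 were lower and none higher in TG mice by the same test, and their summed level was between 6479 and 7946 CPM in WT and between 4961 and 6194 in TG mice. Of 10 oligodendrocyte markers, 1 was lower, with a summed level between 4469 and 7479 CPM in WT and between 4291 and 7608 in TG mice. Of 7 astrocyte markers, 4 were lower and 1 higher (4399 to 5589 and 3911 to 4937 CPM), and of 8 microglial markers, 6 were higher and 1 lower (384 to 444 and 409 to 631 CPM). Of 4 endothelial markers 2 were lower, of 4 markers of oligodendrocyte precursors 1 was higher, and none of the 3 mural, 3 choroid plexus or 2 blood markers passed. None of the markers on these lists was at 0 in all mice. Their part in the septin differences was not tested.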

How the data were processed

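RNA from the neocortex of 21 mice was isolated and sequenced as paired 100 bp reads by the authors. The table the authors deposited holds raw counts of reads by gene symbol. The submitters' processing notes name mm10, HISAT, HISAT2, Bowtie, Bowtie2 and RSEM, and strandedness is not given in the sources used here. Sample groups and batches were taken from the labels. Replicate numbers only name the mice within each genotype, and the same number in both genotypes does not pair them. The labels record no pairing, pooling or litter of the mice, although the controls are littermates. The tests treated the 21 mice as independent and set differences against the spread between them, so shared litters were not modelled.

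The counts were tested with edgeR 4.0.16 (R 4.3.3), using the default expression filter (minimum count 10, minimum total 15), TMM normalization, batch and genotype in the model, the quasi-likelihood test and Benjamini-Hochberg adjustment over 18248 genes at 0.05. Standard errors were derived from the fold change and its F statistic. Correlations used log2 CPM with a prior count of 2. Positions are from RefSeq (GRCm38.p6), where all 10 septins matched, and lengths and sequences from GENCODE vM21. The procedures were tested on simulated data before use.

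The septins, partner genes and marker lists were chosen with earlier results of these data known. Named genes were all septins, the partner genes, the 3 genes most like each of the 3 septins with the largest fold change, and Tardbp. Gp1bb and Tbr1 were added after the values were seen. Some partner and marker genes are counted but not reported here. Alternatives were DESeq2 1.42.0, no batch term, library size scaling, upper-quartile normalization, other filters, each batch alone, leaving out copy rows and leaving out each mouse. Summing copies, leaving out TG replicates 1 and 10, correlations with the copy rows and the length of 1 transcript were added after seeing the data.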

Additional observations from a re-analysis of the deposited data

Results flagged for a closer look

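Within the 10 TG mice, the lowest Septin2 value stood apart from the others. It was 933 normalized counts in the library labelled TG replicate 9, and its gap to the next mouse was 0.504 of the range of the TG group, above Dixon's critical value for a group of 10. The highest value of the Septin5 copy row, 11953 normalized counts in the same library, stood apart in the same way, with a gap of 0.489 of the range. These are 2 flags among 12 groups of values, where chance flags about 1 in 20. The library labelled TG replicate 9 was also the TG mouse whose Tardbp level lay inside the WT range.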

How the results depend on the processing

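No paired analysis was possible because the labels do not pair the mice. Septin5, Septin8 and Septin11 were lower under every alternative, and past the threshold under all but batch A alone, where Septin5 (-0.52) and Septin11 (-0.19) did not pass. Batch A has 7 mice. There 1 septin, 4 partner genes and 2195 of 18580 genes tested passed, and Septin2 (0.059) did not. Scaling by library size only moved the median of all genes to 0.076. With it 6 septins passed, Septin3 (0.12) and Septin9 (0.21) among them as higher, while 8584 of 18248 genes tested passed. The direction turned there for Septin4 (0.021), Septin10 (0.047), Cdc42ep1 (0.010), Cdc42ep2 (0.040), Cdc42ep4 (0.014) and Kif17 (0.039). The direction also turned in batch B alone for Septin4 (0.0063) and Septin10 (0.12) and in batch A alone for Cdc42ep2 (0.0072) and Cdc42ep4 (0.012). Without TG replicates 1 and 10, Septin2 no longer passed (0.12), Septin9 did (0.16) and Septin10 turned to 0.017. The causes of these changes, apart from the number of mice, were not tested.

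With each mouse left out in turn, log2 fold changes were between 0.12 and 0.18 for Septin2 and between 0.020 and 0.056 for Septin3. They were between -0.096 and 0.0082 for Septin4, -0.59 and -0.46 for Septin5, and -0.0031 and 0.079 for Septin6. The ranges were -0.14 and -0.093 for Septin7, -0.52 and -0.49 for Septin8, and 0.099 and 0.16 for Septin9. Those of Septin10 were -0.064 and 0.034, of Septin11 -0.23 and -0.21, and of Cdc42ep2 -0.079 and 0.0036. The differences between batches were between -0.043 and 0.081 for Septin3, -0.33 and 0.15 for Septin5, -0.11 and 0.18 for Septin6, -0.036 and 0.18 for Septin9, and -0.021 and 0.056 for Septin11. Between 4 and 5 septins passed, and between 7805 and 8363 of all genes. All length-scaled levels changed with the length used.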
